A study of Mus musculus with 6 samples.

Results

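Endothelial cells line the inside of every blood vessel, and the 10 genes followed here, Pecam1, Cdh5, Kdr, Flt1, Tek, Tie1, Emcn, Vwf, Eng and Egfl7, are markers of that lining. They are known markers and were taken by gene symbol, with earlier results of these data known, from count files that hold 43472 gene symbols. All 10 have a row there, and all 10 are among the 16152 genes that passed the filter on low counts. The comparison asks how much endothelial RNA, as a sign of vessels in or around the intervertebral discs (IVDs), was present in mutant and control pools.

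The endothelium is built around a few signalling systems. VEGF ligands act on the receptor tyrosine kinases Kdr (VEGFR2), which carries most of the growth signal, and Flt1 (VEGFR1), which binds VEGF tightly and is known as a decoy. Angiopoietins act on Tek (TIE2), whose relative Tie1 modulates it, and Eng (endoglin) is a co-receptor for BMP9 and TGF-beta. Cells are held together by VE-cadherin (Cdh5) and PECAM-1 (Pecam1), while the adult disc is known as a tissue with few vessels, which run in the outer annulus fibrosus, the endplates and the adjoining bone marrow.

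The mutant mice were Col2Cre; Adgrg6f/f, in which a Cre driven by the type II collagen promoter removes floxed Adgrg6 (Gpr126), an adhesion G-protein coupled receptor. The controls are wild type in the genotype label, Col2Cre controls in the title and Cre-negative littermates in the study's text. All mice are labelled C57B6/J and postnatal day 20, and discs of the lower thoracic and lumbar spine of 2-3 mice were pooled for each of 3 control and 3 mutant libraries of poly(A) RNA. The study describes recombination by this Cre throughout the disc and also in periosteum and vertebral trabecular bone. Endothelium is not among the sites it names. Each library held between 9061491 and 12017008 reads assigned to genes. Reads without molecular identifiers are not independent molecules, and p-values measure the spread between these pools, each taken as 1 replicate. Because a library is a mixture of cells, fewer endothelial cells and less RNA per endothelial cell cannot be told apart.

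Control replicate 1 stood apart from the other 5 libraries. Its summed expression of 10 skeletal muscle markers was 4360 CPM (counts scaled to a common library size, with TMM factors), compared with 116 and 77.8 CPM in control replicates 2 and 3 and 160 to 188 CPM in the mutant libraries. The 10 chondrocyte markers that define the labelled tissue summed to 80526 to 141960 CPM in each library. Most of this was Col2a1, at 62708 to 124063 CPM, while the least abundant of the 10 was at 19.1 to 38.2 CPM. Results on the 10 genes are therefore given with all libraries and without control replicate 1. The share of muscle or other attached tissue in the endothelial values was not tested.

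The endothelial marker genes together made up 474, 268 and 302 CPM in control replicates 1, 2 and 3 and 416, 426 and 464 CPM in mutant replicates 1, 2 and 3. Control replicate 1 was the highest of all 6 libraries and the other controls the lowest, so that the groups overlapped through 1 library. The control mean was 348 ± 110 CPM (SD, n = 3) and the mutant mean 435 ± 25.3 CPM, a ratio of 1.25, and the ratio was 1.53 when control replicate 1 was left out. In the quasi-likelihood test of edgeR, 0 of the 10 genes had an unadjusted p under 0.05, where 7.21% of all 16152 genes did (2.89% higher and 4.32% lower in mutant IVDs), and 0 had an adjusted p under 0.05, where 0.00619% did. Unadjusted counts over the 10 genes were 0 with DESeq2 and 5 with limma-voom (Pecam1, Cdh5, Kdr, Flt1 and Eng), and neither tool had a member at an adjusted p under 0.05. Over all genes these unadjusted counts were 1227 with DESeq2 and 1476 with limma-voom. Sample weights in limma-voom were lowest for control replicate 1 (0.647) and mutant replicate 2 (0.690). They were highest for control replicate 2 (1.72) and mutant replicate 3 (1.68). What these weights did to the count was not tested. Nevertheless, 9 of the 10 genes had a fitted log2 fold change above 0, with a median of 0.34, compared with a median of -0.01 and 48.4% above 0 for all genes tested. The median depended on single libraries in both directions: it was 0.13 without control replicate 2, where 7 of the 10 genes lay above the median of all genes (-0.02), and 0.64 without control replicate 1. Control replicate 2 was the lowest of all 6 libraries for 7 of the 10 genes. Without it the changes ranged from -0.22 (Tek) to 0.37 (Eng), with Pecam1 at 0.11, Kdr at 0.14 and Flt1 at 0.08.

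Without control replicate 1, the fitted log2 fold change was above 0 for all 10 genes, and 7 of them had an unadjusted p under 0.05 in edgeR. In the same fit 5.25% of 17164 genes were past that threshold and higher in mutant IVDs, and 8.89% were past it and lower. After adjustment over all genes, 0 of the 10 passed 0.05, while 0.181% of all genes did. The 7 genes are Pecam1, Cdh5, Kdr, Flt1, Tie1, Eng and Egfl7. Of the 10 genes, the same 7 had all mutant libraries above control replicates 2 and 3, as did 13.2% of genes tested. That separation is no second result, since the 7 were called in the same comparison. This fit sets 2 controls against 3 mutants, and it leaves out the library that was the highest control for 10 of the 10 genes.

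**Figure D1:**
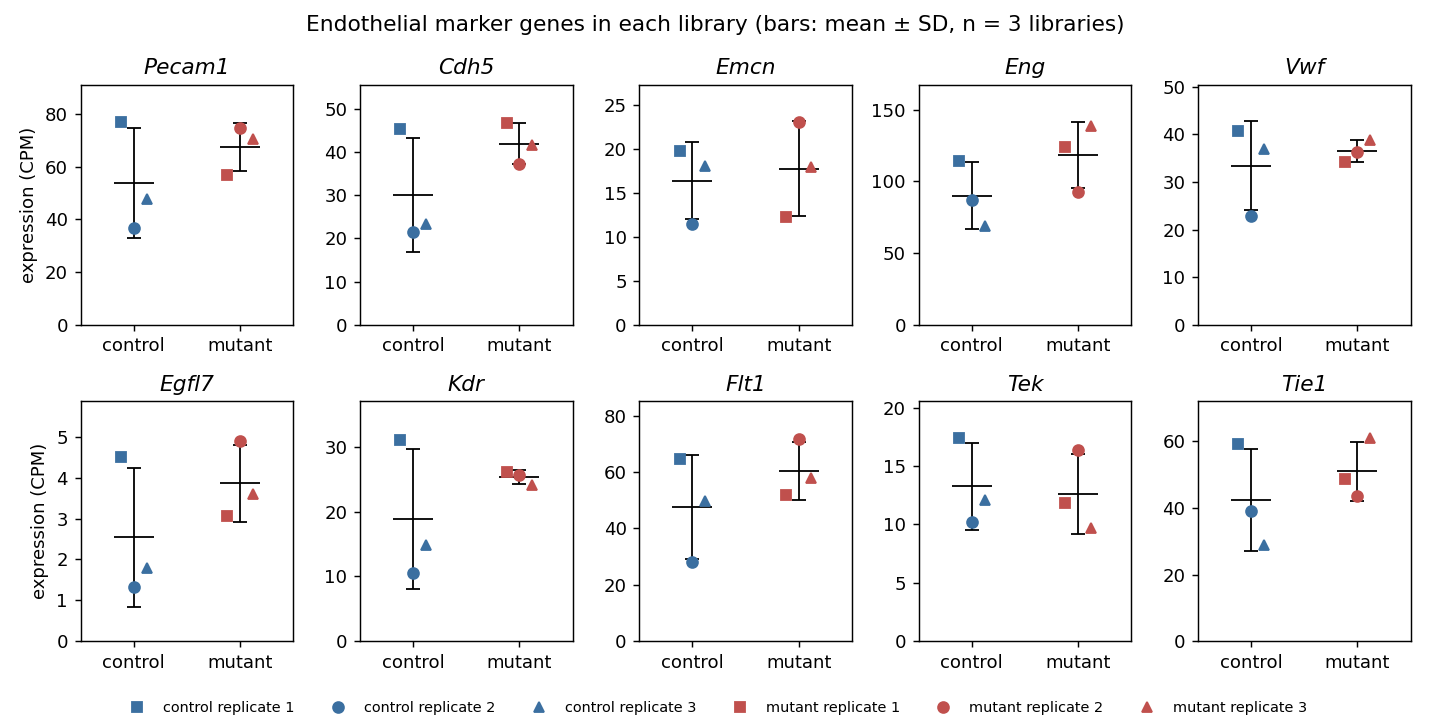
Expression of each endothelial marker gene (CPM, linear axis from 0) in the 3 control (blue) and 3 mutant (red) libraries. Symbols give the replicate number, and black bars give the mean ± SD (n = 3 libraries); control replicate 1 (blue square) is the highest control in all 10 panels.

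The promoters of the receptors are shown before their values, as a description of sequence only. Sequences are from RefSeq on GRCm38.p6. The promoter set used here covered 7 of the 10 genes (Kdr, Flt1, Tek, Tie1, Eng, Emcn and Egfl7), and those of Pecam1, Cdh5 and Vwf were not at hand. Each run below is the 250 bases before the annotated start, 5′ to 3′ on the gene's own strand. Capitals mark AGGAAG or its reverse complement CTTCCT. These strings are longer than GGAA (or TTCC), the core that ETS factors such as Erg bind. The 2 receptors for VEGF, the 2 TIE receptors and endoglin are shown.
Kdr, chr5:75978456-75978705, minus strand: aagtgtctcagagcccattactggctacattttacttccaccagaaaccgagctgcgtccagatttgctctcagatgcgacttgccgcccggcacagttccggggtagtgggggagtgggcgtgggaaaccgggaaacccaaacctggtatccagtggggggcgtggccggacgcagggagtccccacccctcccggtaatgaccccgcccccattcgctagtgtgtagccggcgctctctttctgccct
Flt1, chr5:147726012-147726261, minus strand: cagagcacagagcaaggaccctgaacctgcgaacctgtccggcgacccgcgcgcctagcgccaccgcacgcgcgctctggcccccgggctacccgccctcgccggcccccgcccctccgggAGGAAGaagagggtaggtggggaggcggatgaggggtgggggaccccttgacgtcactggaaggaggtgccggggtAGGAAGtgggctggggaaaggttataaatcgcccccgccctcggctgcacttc
Tek, chr4:94739039-94739288, plus strand: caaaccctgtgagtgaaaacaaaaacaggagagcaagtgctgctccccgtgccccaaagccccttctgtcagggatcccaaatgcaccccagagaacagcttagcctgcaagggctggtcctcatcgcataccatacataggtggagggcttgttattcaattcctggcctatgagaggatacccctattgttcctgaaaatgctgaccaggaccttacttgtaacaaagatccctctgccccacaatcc
Tie1, chr4:118489850-118490099, minus strand: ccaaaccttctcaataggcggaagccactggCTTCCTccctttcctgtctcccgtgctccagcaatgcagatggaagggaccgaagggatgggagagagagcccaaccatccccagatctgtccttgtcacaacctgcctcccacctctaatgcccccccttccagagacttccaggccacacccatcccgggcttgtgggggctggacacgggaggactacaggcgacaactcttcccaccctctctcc
Eng, chr2:32646345-32646594, plus strand: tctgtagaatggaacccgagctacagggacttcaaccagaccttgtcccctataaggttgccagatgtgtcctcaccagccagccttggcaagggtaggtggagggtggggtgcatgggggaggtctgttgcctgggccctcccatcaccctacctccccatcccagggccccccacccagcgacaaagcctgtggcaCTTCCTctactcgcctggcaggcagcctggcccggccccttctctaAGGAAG

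At least 1 match was found before Flt1, Tie1, Eng, Emcn and Egfl7, that is for 5 of 7 genes, or in 6 of their 9 promoters, since Egfl7 has 3. Flt1 and Eng have 2 matches each and Tie1 has 1, while neither marked string occurs in the window of Kdr or Tek. Both of those windows do hold the shorter core GGAA or TTCC, which was not counted. Over all 32851 promoters of the table, 29.5% hold a match within the same 250 bases. A match describes letters only and measures no binding.

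Kdr, on chromosome 5 from 75932827 to 75978458 (GRCm38, as are all gene positions here), was at 31.0, 10.5 and 14.9 CPM in control replicates 1, 2 and 3 and at 26.2, 25.6 and 24.1 CPM in mutant replicates 1, 2 and 3. The mutant libraries lay close together, below control replicate 1 and above both other controls. Its log2 fold change was 0.43 (standard error 0.33, 95% confidence interval -0.31 to 1.17, adjusted p = 0.803 by edgeR) and 1.01 without control replicate 1 (standard error 0.23, unadjusted p = 0.00128, adjusted p = 0.0935, both by edgeR). Control replicate 1 held 2.44 times the mean of the other controls.

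Flt1, on chromosome 5 from 147561604 to 147726011, was at 64.6, 28.1 and 49.8 CPM in the controls and at 51.8, 71.7 and 57.9 CPM in the mutants. Here mutant replicate 2 was the highest library, and mutant replicate 1 was just above control replicate 3. The log2 fold change was 0.35 (standard error 0.27, interval -0.26 to 0.96, adjusted p = 0.804 by edgeR), and 0.65 without control replicate 1 (unadjusted p = 0.0294 by edgeR). The counts sum over the whole gene and do not separate the soluble from the membrane form of this receptor. Within a library, the ratio of Kdr to Flt1 counts, which needs no scaling between libraries, was 0.426 ± 0.0746 in mutant and 0.385 ± 0.0913 in control IVDs, and the groups overlapped.

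Tek, on chromosome 4 from 94739289 to 94874976, was at 17.4, 10.2 and 12.1 CPM in control and at 11.8, 16.4 and 9.67 CPM in mutant replicates. It was the only one of the 10 genes whose fitted change was below 0 with all libraries, at -0.06 (standard error 0.28, interval -0.70 to 0.57, adjusted p = 0.971 by edgeR), and the value was 0.20 without control replicate 1. Mutant replicate 3, the highest library for Eng, was the lowest for Tek. Tie1, on chromosome 4 from 118471191 to 118490061, was at 59.1, 39.0 and 29.0 CPM in control and at 48.6, 43.6 and 60.9 CPM in mutant replicates. Its log2 fold change was 0.27 (standard error 0.25, interval -0.29 to 0.83, adjusted p = 0.826 by edgeR), and 0.61 without control replicate 1 (unadjusted p = 0.0208 by edgeR). The ratio of Tek to Tie1 counts was 0.295, 0.262 and 0.418 in control and 0.244, 0.376 and 0.159 in mutant replicates, so that these relatives did not keep a fixed proportion in either group.

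Eng, on chromosome 2 from 32646595 to 32682669, had the most counts of the 10 genes, at 784 to 1305 per library. Its expression was 115, 87.0 and 68.7 CPM in control and 124, 92.9 and 139 CPM in mutant replicates, and only mutant replicate 2 lay below the highest control. The log2 fold change was 0.39 (standard error 0.23, interval -0.12 to 0.91, adjusted p = 0.747 by edgeR), and 0.63 without control replicate 1 (unadjusted p = 0.0201 by edgeR). Without mutant replicate 2 it was 0.56 (unadjusted p = 0.0451 by edgeR). Endoglin is also known from stromal and some blood-forming cells.

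Pecam1, on chromosome 11 from 106654217 to 106750628, encodes an adhesion molecule of endothelial junctions that platelets and white blood cells also carry. It was at 76.9, 36.5 and 47.8 CPM in control and at 57.0, 74.5 and 70.7 CPM in mutant replicates, a change of 0.33 on the log2 scale (standard error 0.26, interval -0.24 to 0.90, adjusted p = 0.804 by edgeR). All mutants exceeded control replicates 2 and 3, and without control replicate 1 the change was 0.70 (unadjusted p = 0.00735 by edgeR). Cdh5, on chromosome 8 from 104101625 to 104144511, encodes VE-cadherin, the junction protein held to be most restricted to endothelium. It was at 45.3, 21.4 and 23.3 CPM in control and at 46.8, 37.3 and 41.5 CPM in mutant replicates. The change of 0.48 on the log2 scale (standard error 0.27, interval -0.12 to 1.08, adjusted p = 0.742 by edgeR) had the smallest p of the 10 genes, at rank 2293 of all genes tested. Its unadjusted p moved under 0.05 without the filter on low counts (unadjusted p = 0.0294, adjusted p = 0.496 by edgeR) and with limma-voom (unadjusted p = 0.0108, adjusted p = 0.502). The same held with the replicate number as a block (unadjusted p = 0.0330, adjusted p = 0.751 by edgeR), though the numbers were not taken as pairs. Without control replicate 1 the change was 0.92 (standard error 0.20, unadjusted p = 0.000824, adjusted p = 0.0795, both by edgeR), again the smallest p of the 10.

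Emcn encodes endomucin, a sialomucin of veins and capillaries that marks the vessels of growing bone strongly. Emcn spans 137341067 to 137432185 on chromosome 3. Its level was 19.8, 11.4 and 18.1 CPM in control and 12.3, 23.1 and 18.0 CPM in mutant replicates, with mutant replicate 1 near the lowest control. The change was 0.12 (standard error 0.28, interval -0.51 to 0.75, adjusted p = 0.943 by edgeR), and it remained small without control replicate 1, at 0.29 (interval -0.40 to 0.98). The ratio of Emcn to Pecam1 counts was 0.260 ± 0.0475 in mutant and 0.316 ± 0.0601 in control IVDs, and the groups overlapped.

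The secreted products of endothelium were Vwf and Egfl7. Vwf, on chromosome 6 from 125546774 to 125686679, encodes von Willebrand factor, a clotting protein that megakaryocytes also make. It was at 40.7, 22.9 and 36.8 CPM in control and at 34.3, 36.3 and 38.9 CPM in mutant replicates, so that control replicate 2 alone was low. Its log2 fold change was 0.12 (standard error 0.22, interval -0.36 to 0.60, adjusted p = 0.919 by edgeR) with all libraries and 0.31 without control replicate 1 (interval -0.20 to 0.81). Egfl7, on chromosome 2 from 26580014 to 26593120, encodes an EGF-domain protein that vessels deposit in their matrix, and its locus holds the endothelial miR-126.

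Egfl7 was the most thinly covered of the 10 genes, with 42, 12 and 23 counts in control and 27, 60 and 34 counts in mutant replicates. At 4.49, 1.33 and 1.80 CPM in control and 3.07, 4.90 and 3.61 CPM in mutant replicates, its log2 fold change was 0.61 (standard error 0.55, interval -0.61 to 1.83, adjusted p = 0.823 by edgeR) and 1.31 without control replicate 1 (interval 0.11 to 2.51). The annotation places another gene on the same strand, Gm20532, over 264 bases of its exons, and Agpat2 over 64 bases on the opposite strand. The miR-126 hairpins, Mir126a on the same strand and Mir126b on the opposite one, share 73 and 58 bases with its annotated exons. Over the 6 libraries Gm20532 was given 1808 counts and Agpat2 1865, compared with 198 for Egfl7. How many reads were set aside as ambiguous between them was not analysed here, so the level of Egfl7 is uncertain. Among the other 9 genes, exon overlap in GENCODE M21 was found for Eng alone, with 61 bases shared with Fpgs on the opposite strand.

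**Figure D2:**
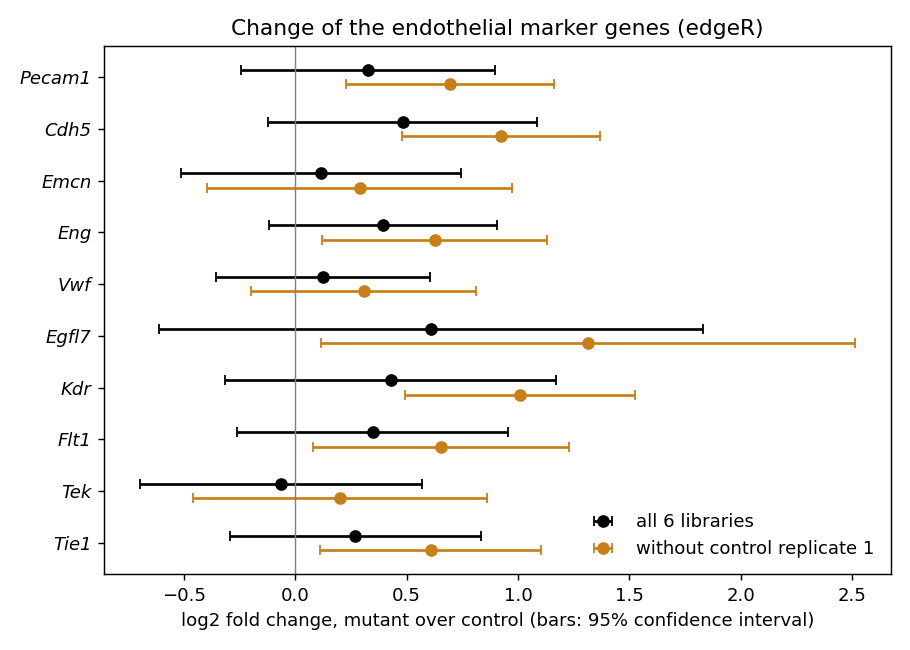
Log2 fold change of mutant over control for each endothelial marker gene in edgeR, with 95% confidence intervals, from all 6 libraries (black) and without control replicate 1 (orange). All 10 black intervals include 0, while 7 of the orange intervals lie above 0.

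Levels of different genes were compared per kilobase of exon. In control IVDs Eng led at 22.3 ± 5.71 CPM per kb, and its lowest library, at 17.0, lay above the highest of any other member. Pecam1 (8.63 ± 3.35), Tie1 (8.61 ± 3.12) and Cdh5 (7.14 ± 3.15 CPM per kb) followed, with overlapping spread between libraries. Within each control library Cdh5 lay below both Pecam1 and Tie1, while in mutant replicate 1 it lay above both. Flt1 was at 3.52 ± 1.36, Emcn at 3.04 ± 0.816, Tek at 2.81 ± 0.795, Kdr at 2.08 ± 1.20 and Vwf at 2.08 ± 0.583 CPM per kb, and these neighbours overlapped as well. Egfl7 was last at 0.710 ± 0.477 CPM per kb. In mutant IVDs the order began in the same way, with Eng at 29.3 ± 5.77, Pecam1 at 10.8 ± 1.48, Tie1 at 10.4 ± 1.81 and Cdh5 at 9.96 ± 1.13 CPM per kb. Exon length here is that of all annotated isoforms joined, which lowers the value of genes with long alternative exons.

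**Figure D3:**
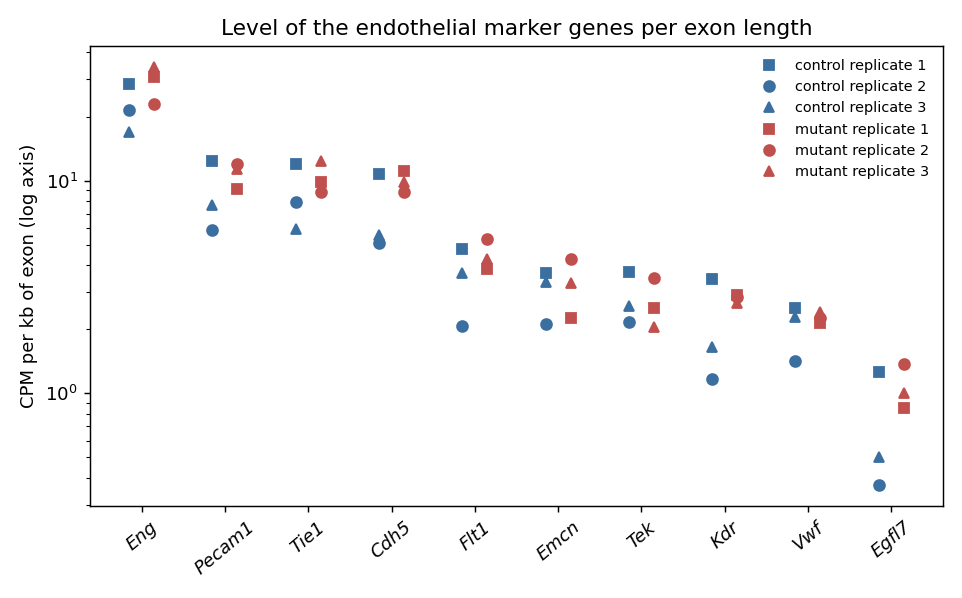
Level of each endothelial marker gene in each library as CPM per kb of exon (log axis), ordered by the control mean, with control libraries in blue and mutant libraries in red. Eng stands above the rest, Pecam1, Tie1 and Cdh5 lie close together, and Egfl7 is lowest.

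The marker genes varied together from library to library. Over the 45 pairs of members, Pearson's r of log2(CPM + 1) across the 6 libraries had a median of 0.68, and 43 pairs were above 0. Pecam1 (r = 0.99), Kdr (0.98) and Egfl7 (0.98) lay closest to the mean of all members, which includes them, and Tek (0.60), Eng (0.64) and Emcn (0.67) lay furthest. These values are descriptions, since the points share library, scaling and genotype. Among genes outside the list, those most like the mean of the members were Gm27029, Acbd3, Rabl6, Lrrfip1 and Evl, with r from 0.987 to 0.994 across 6 libraries. None of the 5 is known as an endothelial marker. An r over 0.8 was found for 12 of 28 other pan-endothelial genes and for 4.35% of all genes tested.

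Next, 28 further genes of endothelium were examined, which were listed with earlier results of these data known and are no independent showing. Their summed expression was 648, 485 and 437 CPM in control and 641, 585 and 698 CPM in mutant replicates. Control replicate 1 again reached the level of the mutants. With all libraries 25 of 28 had a log2 fold change above 0 (median 0.29), and 1 had an unadjusted p under 0.05 in edgeR, near the 2.89% of all genes called higher. Without control replicate 1 the median was 0.64, and 13 of 28 had an unadjusted p under 0.05, all of them higher in mutant IVDs, beside 5.25% of all genes, with 0 after adjustment. The gene past the threshold with all libraries was Erg, an ETS factor of endothelium that chondrocytes are also known to express. Erg was at 50.1, 40.9 and 34.9 CPM in control and at 81.9, 62.1 and 55.7 CPM in mutant replicates, a change of 0.67 on the log2 scale (standard error 0.20, unadjusted p = 0.00818, adjusted p = 0.676, both by edgeR). Its mutant libraries all lay above its controls, as for 2 of the 28 genes (with Gpihbp1, a capillary lipase anchor, which like Cldn5 was singled out after its values were seen) and for 5.45% of genes tested, and without control replicate 1 the change was 0.84. Cldn5, a claudin of endothelial tight junctions, went the other way. Its level was 23.9 ± 2.23 CPM in controls and 18.0 ± 3.44 CPM in mutants (log2 fold change -0.40, unadjusted p = 0.0689 by edgeR, and -0.40 without control replicate 1). Every mutant lay below every control, but barely, with mutant replicate 3 at 21.8 CPM and control replicate 2 at 21.9 CPM. Such a separation was found for 1 of the 28 genes and for 963 of the 16152 genes tested. Plvap, a protein of fenestrated capillaries, was the most abundant of this list and was at 94.8, 95.7 and 90.5 CPM in control and at 102, 70.1 and 159 CPM in mutant replicates, with no shift of control replicate 1 (log2 fold change 0.24, adjusted p = 0.856 by edgeR; 0.27 without control replicate 1). Ramp2, a receptor component for adrenomedullin, was second, at 58.5, 86.5 and 46.8 CPM in control and 81.1, 62.1 and 88.6 CPM in mutant replicates, and there control replicate 2 was the highest control.

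Of 11 other genes of the VEGF and angiopoietin systems, which are ligands, the neuropilin co-receptors and the receptor Flt4, 1 was past an unadjusted p of 0.05, 5 had a change above 0, and the median was -0.03 (7 above 0 and a median of 0.17 without control replicate 1, again with 1 past the threshold). That gene was Vegfa, the main ligand of Kdr and Flt1, which chondrocytes also make. Vegfa was at 123, 95.9 and 81.2 CPM in control and at 182, 106 and 162 CPM in mutant replicates, a change of 0.59 on the log2 scale (standard error 0.24, unadjusted p = 0.0344, adjusted p = 0.676, both by edgeR). The groups overlapped through mutant replicate 2, and without control replicate 1 the change was 0.78 (unadjusted p = 0.0103 by edgeR). The co-receptors Nrp1 and Nrp2 showed log2 fold changes of -0.03 and 0.28 (adjusted p = 0.987 and 0.873 by edgeR), and 0.35 and 0.48 without control replicate 1. Of 12 tested genes around endoglin, Id2, a target of BMP signalling in many cells, alone was past the unadjusted threshold, at 0.75 on the log2 scale (unadjusted p = 0.00443, adjusted p = 0.656, both by edgeR) and at 0.73 without control replicate 1, when 1 of 12 was again past it. Among 12 tested arterial, tip cell and Notch genes there were 2, Apln, a peptide of sprouting tips (log2 fold change 1.09, unadjusted p = 0.0226 by edgeR), and the arterial ephrin Efnb2 (0.72, unadjusted p = 0.0277 by edgeR). These became 1.12 and 0.84 without control replicate 1, and 3 of the 12 were past the threshold. In 8 tested venous and sinusoidal genes there were 0 and the median change was 0.20, and without control replicate 1 there were 1 higher and 1 lower of 9 tested. Lymphatic markers summed to 16.1 to 30.2 CPM in any library, with a mean of 20.9 CPM in controls and 20.8 CPM in mutants. In each fit 2 of 5 tested had a change above 0 (median -0.25, and -0.56 without control replicate 1). With all libraries only Prox1, the master regulator of lymphatic endothelium, was past the threshold, at 2.53 ± 1.26 CPM in controls and 0.873 ± 0.385 CPM in mutants (log2 fold change -1.51, unadjusted p = 0.0371 by edgeR). Prox1 rests on few counts, 17, 16 and 51 in control and 5, 16 and 7 in mutant replicates, with control replicate 3 the highest. Its change was -1.68 without control replicate 1, when 1 lymphatic marker was past the threshold and higher and 2 were lower. The counts in these lists stand beside 2.89% of all genes past the threshold and higher and 4.32% lower with all libraries, and 5.25% higher and 8.89% lower without control replicate 1. No gene of these lists had an adjusted p under 0.05 in edgeR.

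Vessels carry mural cells on their outside and blood within. The 14 markers of pericytes and vascular smooth muscle summed to 1190, 1042 and 948 CPM in control and 1102, 959 and 1307 CPM in mutant replicates, and the groups overlapped. The sum leans on 1 gene, the proteoglycan Cspg4, which cartilage also expresses, at 518, 598 and 437 CPM in control and 480, 372 and 462 CPM in mutant replicates. With all libraries 10 of 14 markers had a change above 0 (median 0.15), and without control replicate 1 there were 11 (median 0.41). All mutants lay above all controls for 2 of the 14, Pdgfrb and Rgs5, singled out after their values were seen, beside 5.45% of all genes. Of the 14, Mcam was past the unadjusted threshold and higher (log2 fold change 0.50, unadjusted p = 0.0437 by edgeR; 0.75 without control replicate 1), and Des, which skeletal muscle also expresses, was past it and lower. Des was at 127 CPM in control replicate 1 and at 5.24 to 13.2 CPM elsewhere. When control replicate 1 was left out, 3 of the 14 were past the threshold and higher, and 0 were lower. All genes gave 2.89% higher and 4.32% lower with all libraries, and 5.25% and 8.89% without that library.

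Markers of red blood cell precursors were lowest in the same libraries as the endothelial genes, control replicates 2 and 3. They summed to 346, 41.0 and 104 CPM in control and to 282, 460 and 216 CPM in mutant replicates, and control replicate 1 held 4.76 times the mean of the other controls. The mutant mean was 1.95 times the control mean, and 4.40 times without control replicate 1. All 8 tested had a log2 fold change above 0 with 1, Slc4a1, the anion exchanger of red blood cells, past an unadjusted p of 0.05. Without control replicate 1, all 10 tested were above 0 (median 2.10), and 7 were past it, beside 50.4% of all genes above 0 and 5.25% past it and higher. Of adipocyte markers, control replicate 1 held 228 CPM compared with 97.6 and 125 CPM in the other controls and 121 to 186 CPM in the mutants. With all libraries 3 of 7 tested had a change above 0 and 0 were past the threshold, and without control replicate 1 these were 6 of 7 (median 0.41) and 2, both higher. Neutrophil precursor markers summed to 16.2, 32.8 and 60.7 CPM in control and 157, 56.4 and 34.0 CPM in mutant replicates, with control replicate 1 the lowest library and mutant replicate 1 far above the rest. All 9 had a log2 fold change above 0 (median 1.02), and 2 were past an unadjusted p of 0.05, Mpo, myeloperoxidase (2.15, unadjusted p = 0.000661 by edgeR), and Prtn3, proteinase 3 (2.26, unadjusted p = 0.0285 by edgeR). Leaving out control replicate 1 gave 7 of 9 above 0, a median of 0.79 and again 2 past the threshold. The shares over all genes were 48.4% above 0 and 2.89% past the threshold and higher with all libraries, and 50.4% and 5.25% without that library. Macrophage markers were at 55.5 to 80.8 CPM in control and 60.4 to 119 CPM in mutant IVDs, with 1 of 9 tested past the threshold and higher in each fit. Platelet and megakaryocyte markers, which could add to Vwf and Pecam1, summed to 31.8 CPM in control replicate 1 and to 48.4 and 45.5 CPM in the other controls. The sum leans on Gp1bb, at 16.3, 27.3 and 29.6 CPM in control replicates 1, 2 and 3. Itga2b, the next most abundant, was at 10.7, 15.9 and 9.77 CPM there. Whether platelets add to the endothelial values was not tested. With all libraries 0 of 4 tested were past the threshold, beside 7.21% of all genes. Without control replicate 1, 2 of 5 were past it and lower, beside 8.89% of all genes.

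Markers of skeletal muscle, tendon, bone and cartilage were examined as well. With all libraries 9 of 10 skeletal muscle markers were past an unadjusted p of 0.05 and lower in mutant IVDs (median log2 fold change -3.07), beside 4.32% of all genes. This direction rested on control replicate 1. The mutant libraries held more skeletal muscle marker RNA than control replicates 2 and 3, and without control replicate 1 the median over these 10 markers was 1.01 on the log2 scale, with 5 of 10 past an unadjusted p of 0.05 and higher, beside 5.25% of all genes. For the 8 tendon and outer annulus markers the median was 0.72 with all libraries and 0.84 without control replicate 1, with 4 past the unadjusted threshold and higher in each fit, beside 2.89% and 5.25% of all genes. In the fit without control replicate 1, 2 of them also passed after adjustment, Tnc (adjusted p = 0.0361 by edgeR) and Thbs4 (adjusted p = 0.0389 by edgeR), which encode the matrix proteins tenascin-C and thrombospondin-4. Osteoblast markers did not share a direction: 5 of 10 had a change above 0 (median -0.08), with 2 past the unadjusted threshold and higher, Bglap and Col1a1, and 2 lower, Runx2 and Phex. Leaving out control replicate 1 gave a median of 0.10, with 3 higher and 1 lower. Of the 10 chondrocyte markers, 2 had a change above 0 with all libraries (median -0.27), with 0 past the threshold and higher and 1 lower. Without control replicate 1, 4 of 10 were above 0 (median -0.13), and 0 were past the threshold. Above 0 were 48.4% of all genes with all libraries and 50.4% without control replicate 1. All genes gave 2.89% higher and 4.32% lower with all libraries, and 5.25% and 8.89% in the latter fit. The part of these tissues, or of how discs were dissected, in the endothelial values was not tested.

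**Figure D4:**
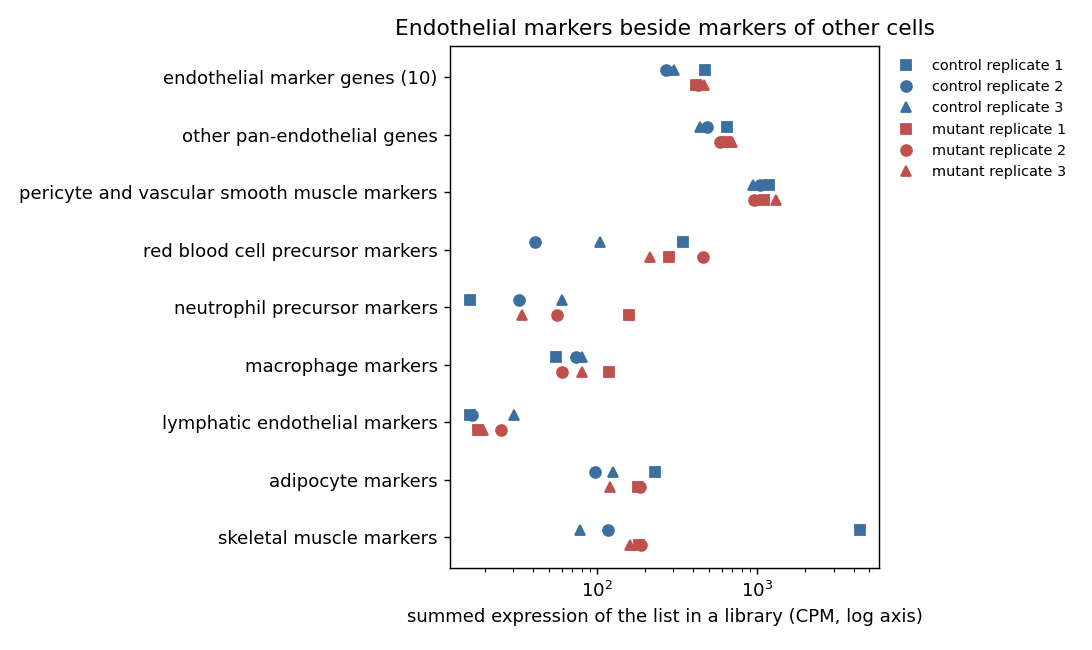
Summed expression (CPM, log axis) of each marker list in each library, with control libraries in blue, mutant libraries in red and the replicate number as the symbol. Control replicate 1 (blue square) lies with the mutant libraries for endothelial and red blood cell precursor markers and far above all libraries for skeletal muscle markers.

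Cartilage is also known for proteins that keep vessels out. A list of 10 angiogenesis inhibitors was examined, not all of them particular to cartilage. Of these, 3 had an unadjusted p under 0.05 in edgeR, all with mutant means above control, beside 2.89% of all genes. The median change over the list was 0.34. Summed expression did not rise, at 2878 ± 388 CPM in controls and 2813 ± 142 CPM in mutants (ratio 0.98, and 0.96 without control replicate 1). Without control replicate 1 these were 5 of 10 genes, beside 5.25% of all genes, and a median of 0.51. Serpinf1, which encodes PEDF, was at 99.3, 106 and 71.2 CPM in control and at 124, 169 and 154 CPM in mutant replicates (log2 fold change 0.69, unadjusted p = 0.00748, adjusted p = 0.676, both by edgeR). Tnmd, tenomodulin, which is also a tendon marker, was at 34.0, 28.8 and 28.8 CPM in control and at 40.1, 85.6 and 52.6 CPM in mutant replicates (log2 fold change 0.96, unadjusted p = 0.00376, adjusted p = 0.629, both by edgeR). For Thbs2, thrombospondin-2, the change was 0.84 (unadjusted p = 0.0121, adjusted p = 0.676, both by edgeR). Lect1, chondromodulin, the most abundant of the list, was at 1872 ± 393 CPM in controls and 1586 ± 153 CPM in mutants, for a change of -0.24 (standard error 0.24, adjusted p = 0.843 by edgeR).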

How the data were processed

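RNA-seq was made from 6 pools of P20 IVDs, 3 of each genotype. The authors deposited raw counts per gene symbol for each library, as whole numbers with the closing lines of htseq-count. The submitters' processing notes name STAR 2.5.3a, HTSeq and DESeq2 with mm10 and GRCm38, while the methods of the study name Cutadapt, FastQC and HISAT2, and neither gives the strand setting. A deposited table of the authors' own comparison was not used. Lines that name no gene were left out, and 40.4% to 44.2% of reads were counted on genes.

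Counts were analysed with edgeR 4.0.16 in R 4.3.3. TMM scaling, removal of low genes by filterByExpr (count minimum 10), the quasi-likelihood test and Benjamini-Hochberg adjustment over all genes tested were used, with no covariate, since no source calls the replicate number a litter. The threshold was 0.05. CPM are TMM-scaled, and positions and exon lengths are from GENCODE M21. The test was tried on simulated counts first. The members and lists were chosen with earlier results of these data known. Named are all members and the 5 genes most like them. Other genes of the lists were named from those with an unadjusted p under 0.05 or among the 3 most abundant, not all of which are named. Flt4 was named to describe its list, and Cldn5, Gpihbp1, Pdgfrb and Rgs5 were singled out later. Genes that overlap Egfl7 or Eng were named from the annotation and belong to no list. Alternatives were RLE scaling, library totals, no filter, DESeq2 1.42.0, limma-voom (limma 3.58.1) with quality weights, the replicate number as a block, and leaving out each library.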

Additional observations from a re-analysis of the deposited data

How the results depend on the processing

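With a single library left out, the number of endothelial marker genes at an unadjusted p under 0.05 in edgeR ranged from 0 to 7. It was 7 without control replicate 1, where 5.25% of 17164 genes tested were past the threshold and higher and 8.89% lower. It was 1, Eng, without mutant replicate 2, where 1669 of all genes were past it, compared with 1164 with all libraries. It was 1 without the filter on low counts, 1 with the replicate block (Cdh5 in both, with the block unadjusted p = 0.0330, adjusted p = 0.751 by edgeR) and 5 with limma-voom. None passed after adjustment under any of the 12 alternatives. The same count for the 28 other pan-endothelial genes was 2 with library totals, 3 without the filter, 2 with DESeq2, 6 with limma-voom, 2 with the replicate block, and 1 to 13 with 1 library left out. Over all genes, the unadjusted count of 1164 became 2276 without the filter, 1227 with DESeq2, 1476 with limma-voom, 1002 with the replicate block and 618 (without control replicate 3) to 2427 (without control replicate 1) with 1 library left out. These are counts in both directions and not shares, since the number of genes tested differed between fits (16152 in the main fit, 17164 without control replicate 1). The adjusted count of 1 became 245 without the filter, 58 with DESeq2, 0 with limma-voom, 0 with the replicate block and 0 to 31 with 1 library left out.

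The log2 fold change changed sign for Tek, which spanned -0.29 to 0.20 with 1 library left out, when control replicate 1 (0.20), mutant replicate 1 (0.01) or mutant replicate 3 (0.10) was dropped, for Emcn without control replicate 2 (-0.09) or mutant replicate 2 (-0.11), and for Vwf without control replicate 2 (-0.091). With 1 library left out, Emcn spanned -0.11 to 0.36 and Vwf -0.091 to 0.31. Of 120 pairs of a member and an alternative, 99 kept their sign and side of the threshold, 15 moved past it and 6 changed sign. The median over the members was 0.13 without control replicate 2 and 0.64 without control replicate 1. With library totals in place of TMM the median of all genes was -0.13, and that of the members lay 0.36 above it. Same-numbered libraries deviated from their group means with correlations of 0.10, -0.21 and 0.09, and differently numbered ones with -0.25 to 0.18. These correlations cannot show whether same-numbered pools shared litters. The numbers were not taken as pairs because no source calls them litters.

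The cause of these shifts was not tested. At 12 to 60 counts per library, depth limits Egfl7 most.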
